A study of Mus musculus with 6 samples.

Results

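Hapln3, Trpm6, Rln3, Abi3bp, Xdh and Fam19a3 are 6 mouse genes that have no place in the usual lymphoid gene lists. Their means were low in control early T cell progenitors. In progenitors with the genes of the transcription factors E2A and HEB deleted, their means lay in the middle of the range. They were picked from the authors' deposited table of 22609 genes, 16241 of them tested, for a mean normalised count in the double-knockout group over 30 times the control mean and over 200. Because the group means chose the genes, their levels and folds are given as a description and carry no test. In all, 8 tested genes (0.0493%) passed both thresholds. The remaining pair, Ncr1 and Gpr15, encode an activating receptor of natural killer cells and a homing receptor of lymphocytes and were not counted among the 6.

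The cells were early T cell progenitors, the most immature thymocytes, sorted from fetal thymus of C57BL/6 mice as CD4-CD8-Lin-CD44+CD25-ckit+ cells. The 3 control libraries came from mice labelled wild type, and the 3 double-knockout (dKO) libraries from mice of genotype E2Afl/flHEBfl/flIL7RCre, in which a Cre recombinase driven from the Il7r gene deletes the loxP-flanked genes of E2A (Tcf3) and HEB (Tcf12). Only the dKO cells were also sorted for YFP, so gate and genotype differ together and cannot be told apart. The age of the fetuses, the allele that carries YFP and whether a library came from 1 animal or a pool are not given in the labels, so the spread between libraries may be technical. The deposited table holds group means only. Because each mean is a sum of whole reads weighted by library, the reads behind low means were recovered, and libraries are named by their size factor, the divisor that corrects for depth, since nothing ties them to replicate numbers.

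The E proteins E2A and HEB are transcription factors of the helix-loop-helix class. They bind the E-box, CANNTG, and drive the T and B lymphoid programmes, while Id proteins hold them in check. When E protein activity is low, lymphoid progenitors lean to innate lymphoid fates, which is the choice the series addresses. The 6 genes are known mostly from other settings. Hapln3 encodes a link protein that fastens proteoglycans to hyaluronan, and Abi3bp a secreted matrix protein that binds the SH3 domain of the adaptor ABI3. Rln3 encodes relaxin 3, a peptide hormone of the insulin superfamily best known from the brain, and Fam19a3 (also called Tafa3) a small secreted protein of the chemokine-like TAFA family. Trpm6 encodes a magnesium-permeable channel joined to a protein kinase, which serves magnesium uptake in gut and kidney. Xdh encodes xanthine dehydrogenase, a molybdenum enzyme that turns hypoxanthine and xanthine into uric acid late in purine breakdown.

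Since the deleted factors bind E-boxes, the promoters of the 6 genes were read for that motif. RefSeq promoter sequences on GRCm38.p6 were matched for 4 of the 6, and none was used for Abi3bp and Xdh. The 250 bases before the transcription start are shown 5′ to 3′ on the gene's own strand, with each CANNTG in capitals. The windows are chr7:79131019-79131268 on the minus strand for Hapln3, chr19:18749480-18749729 on the plus strand for Trpm6, chr8:84044980-84045229 on the minus strand for Rln3, and chr3:104777548-104777797 on the minus strand for Fam19a3.
Hapln3: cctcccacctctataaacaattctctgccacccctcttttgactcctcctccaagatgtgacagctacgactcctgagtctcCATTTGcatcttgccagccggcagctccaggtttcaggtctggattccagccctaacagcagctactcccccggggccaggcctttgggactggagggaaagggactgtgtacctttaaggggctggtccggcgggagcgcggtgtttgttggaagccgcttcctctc
Trpm6: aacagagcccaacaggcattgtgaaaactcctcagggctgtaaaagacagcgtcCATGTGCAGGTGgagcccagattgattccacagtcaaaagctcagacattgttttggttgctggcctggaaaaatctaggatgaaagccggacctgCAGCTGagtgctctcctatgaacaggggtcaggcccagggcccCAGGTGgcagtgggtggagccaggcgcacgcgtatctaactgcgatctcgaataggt
Rln3: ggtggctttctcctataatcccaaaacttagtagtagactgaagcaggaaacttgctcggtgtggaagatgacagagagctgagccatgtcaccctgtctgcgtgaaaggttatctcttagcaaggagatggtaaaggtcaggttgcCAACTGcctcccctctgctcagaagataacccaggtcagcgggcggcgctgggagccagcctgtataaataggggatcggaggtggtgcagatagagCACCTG
Fam19a3: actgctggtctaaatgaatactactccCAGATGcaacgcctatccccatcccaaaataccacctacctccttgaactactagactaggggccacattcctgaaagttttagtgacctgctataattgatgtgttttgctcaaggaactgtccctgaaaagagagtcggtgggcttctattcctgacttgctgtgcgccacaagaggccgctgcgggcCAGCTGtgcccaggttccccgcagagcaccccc

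Matches were counted on both strands of these windows, beside 32851 promoter windows of the same length in the RefSeq table. CANNTG occurred 4 times in the Trpm6 window, 2 times each in those of Rln3 and Fam19a3, and 1 time in that of Hapln3, where 66.2% of all windows hold at least 1 match and the mean is 1.16. There are narrower forms, each of which is also an E-box. CAGCTG was present in the Trpm6 and Fam19a3 windows (13.0% of all windows) and CAGGTG, or CACCTG on the opposite strand, in those of Trpm6 and Rln3 (17.2%). The CACCTG of Rln3 begins 6 bases before the start. AGATAA, a form of the GATA factor motif, matched 2 times in the Rln3 window, once on each strand, and in 9.99% of all windows. TATAAA, the letters of a TATA box, lay 40 bases before the start of Rln3 and 239 bases before that of Hapln3 (12.4% of all windows). TGTGGT, a core of the Runx motif, and TGANTCA, the AP-1 motif, matched in none of the 4 windows, against 14.0% and 6.75% of all windows. A match is a run of letters and shows no binding.

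Both deleted genes were lower in dKO. Tcf3 had a control mean of 8931 and a dKO mean of 364, per the authors' deposited table, and Tcf12 had 3845 and 562. The sums of normalised counts put the depth of the control libraries at 18.2 to 22.6 M reads and that of the dKO libraries at 24.3 to 27.0 M. All 9 progenitor markers checked were above 0 in both groups. In dKO, Kit, Ptprc and Gata3 (7051 and 22961) were called higher, per the authors' deposited table. Called lower there were Notch1 (10176 and 1829), Flt3 (1080 and 327), Hes1 (391 and 117), Cd3e (3224 and 974) and Tcf7 (10825 and 8433), per the authors' deposited table, and Cd44 was not called. Of all tested genes, 29.0% differed at the authors' adjusted p under 0.05, 15.1% higher and 13.8% lower in dKO.

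Hapln3, the link protein gene, had the largest fold of the 9219 genes with a dKO mean over 200. Its mean was 4.20 in control and 395 in dKO in the authors' deposited table, a 94.0-fold difference. The control reads were 12 in the library of size factor 0.952, a normalised count of 12.6, and 0 in both others. In dKO the mean allows 2 solutions. The first gives normalised counts of 458, 441 and 286 in the libraries of size factor 1.16, 1.08 and 1.04, and the second gives 805, 93.9 and 286. Either way the lowest dKO library lay above the highest control library, by 22.7-fold or by 7.45-fold. Without the control library that holds all its control reads the fold was at least 217, taking a floor of 3 reads over the group. Under the second solution it was 45.2-fold without the dKO library of size factor 1.16. In these bulk libraries a change in the share of cells that express a gene and a change in RNA per cell cannot be told apart.

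Abi3bp, the other matrix gene, had the smallest relative spread of the 6 over the control libraries. Its control reads were 2, 4 and 4 in the libraries of size factor 1.02, 0.952 and 0.823, a normalised count of 3.67 ± 1.52 (SD, n = 3). In dKO the normalised counts were 150, 259 and 219 in the libraries of size factor 1.16, 1.08 and 1.04, or 209 ± 55.1 (SD, n = 3). The fold of the group means was 56.9, per the authors' deposited table, and the lowest dKO library was 30.8-fold above the highest control library. With 10 control reads in all, the 95% Poisson interval of that total runs from 4.80 to 18.4 reads, which covers counting error only.

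Rln3, the relaxin 3 gene, stood at 8.78, 3.15 and 7.29 normalised counts in the control libraries of size factor 1.02, 0.952 and 0.823, from 18 reads. The dKO libraries of size factor 1.16, 1.08 and 1.04 held 266, 478 and 416. The means were 6.41 ± 2.92 and 387 ± 109 (SD, n = 3 each). Every dKO library was at least 30.2-fold above the highest control library, and the fold of the means was 60.3, per the authors' deposited table. Rln3 is the shortest of the 6, with 2 exons and 634 bases of exon in GENCODE M21.

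Fam19a3, the TAFA gene, was unevenly spread over the control libraries. They held 1, 13 and 7 reads in the order of size factor 1.02, 0.952 and 0.823, a normalised count of 7.71 ± 6.37 (SD, n = 3). Its dKO values of 190, 221 and 311 were the only ones of the 5 genes with a single solution to peak in the library of size factor 1.04. They average 241 ± 62.8 (SD, n = 3), and the lowest was 13.9-fold above the highest control value. The fold of the means was 31.3, per the authors' deposited table, and 50.8 without the control library of size factor 0.952, and it was 21.8 without that of 1.02. In GENCODE M21 an exon of the gene model Gm43584 overlaps those of Fam19a3 on the same strand, so reads could belong to either. No other member shares exon sequence with another gene in that annotation.

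Trpm6, the magnesium channel gene, varied most among the dKO libraries of the 5 genes with a single solution. The values were 208, 583 and 414 in the libraries of size factor 1.16, 1.08 and 1.04, or 402 ± 188 (SD, n = 3), a 2.81-fold range. Control values were 4.88, 1.05 and 12.1 in the libraries of size factor 1.02, 0.952 and 0.823, or 6.03 ± 5.64 (SD, n = 3), and 10 of the 16 control reads lay in the last. The groups were separated by 17.1-fold between their nearest libraries. The fold of the means was 66.7, per the authors' deposited table, and 135 without the control library of size factor 0.823. It was 47.2 without the control library of size factor 0.952 and 51.6 without the dKO library of size factor 1.08.

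Xdh, the xanthine dehydrogenase gene, had reads in all 3 control libraries, with 1 of them well below the others. Its control values were 28.3, 28.4 and 4.86 in the libraries of size factor 1.02, 0.952 and 0.823, or 20.5 ± 13.6 (SD, n = 3), from 60 reads. In dKO the values were 403, 894 and 729 in the libraries of size factor 1.16, 1.08 and 1.04, or 675 ± 250 (SD, n = 3). The lowest dKO library was 14.2-fold above the highest control library, and the fold of the means was 32.9, per the authors' deposited table. It was 23.8 with the low control library left out, that of size factor 0.823.

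**Figure D1:**
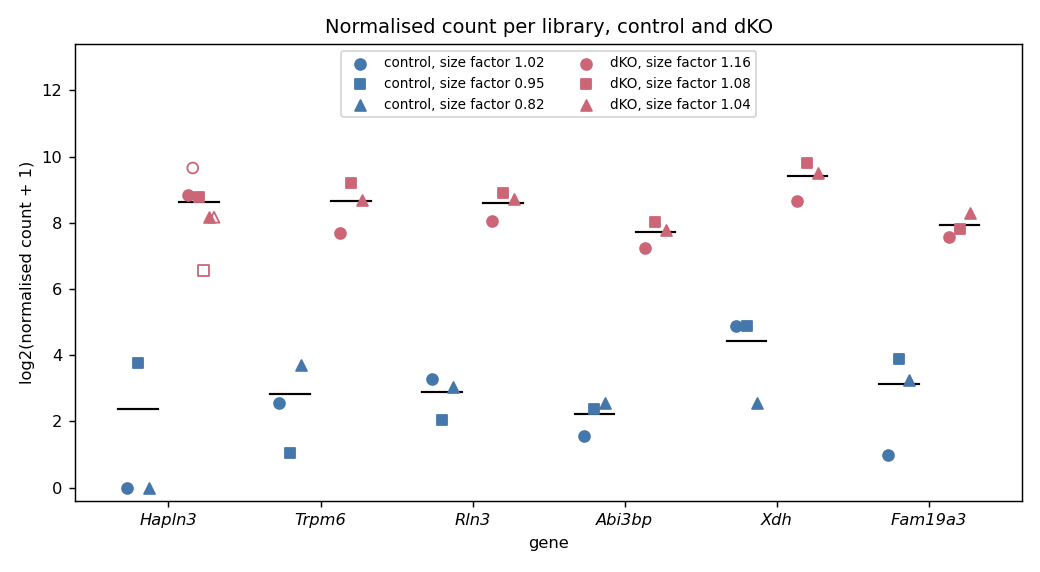
Normalised count of the 6 genes in each library, as log2(value + 1), with control in blue, dKO in red, a symbol for each size factor and a bar at the group mean. Open symbols are the second solution for Hapln3 in dKO, and the gap between the groups follows from how the genes were chosen.

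The thresholds were crossed by a small step at their lower ends. Fam19a3 at 31.3-fold and Xdh at 32.9-fold were the members nearest to the fold threshold, and Abi3bp with a dKO mean of 209 was nearest to the level threshold. Just outside the fold threshold in the authors' deposited table were Gm4902, 25.3-fold higher at a dKO mean of 1875, Ifi27l2a, 22.2-fold at 455, and Tnfrsf9, 20.7-fold at 7991. Of these, Ifi27l2a was not called (authors' adjusted p = 0.0508, per the authors' deposited table). Just below the level threshold were Fsd1, 35.1-fold higher at 182, Zfp365, 35.3-fold at 177, and Egr3, 46.8-fold at 98.3, per the authors' deposited table. A control mean under 10 with a dKO mean over 200 was found for 6 genes, which are the members other than Xdh, and Ncr1. The reverse pattern, a dKO mean under 10 with a control mean over 200, was found for 11 genes. In control the members stood above 14.8% to 25.95% of the tested genes, and in dKO above 43.7% to 60.1%, so they went from the low end to the middle of the range of means.

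**Figure D2:**
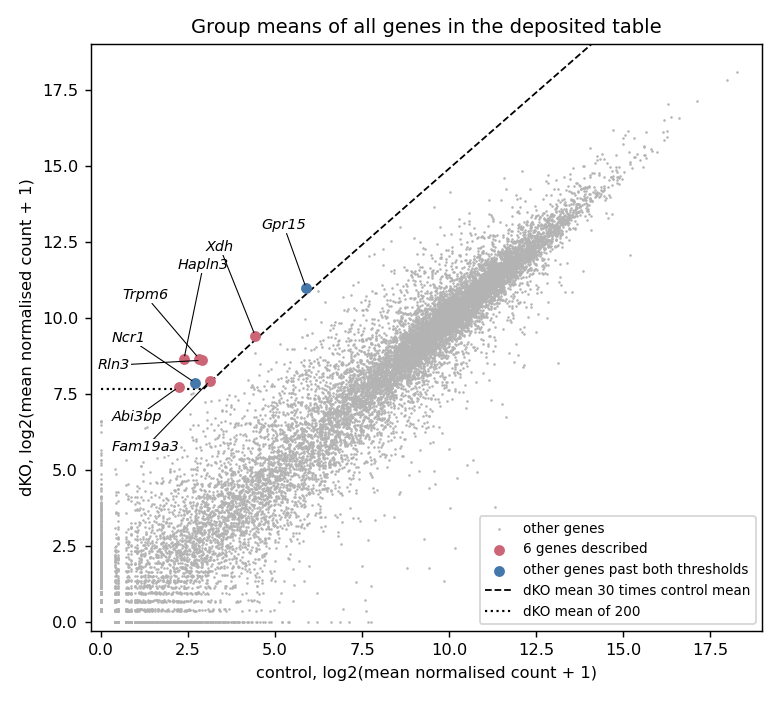
Mean normalised count of each gene in dKO against control, both as log2(value + 1), with the 6 genes in red, the other 2 genes past both thresholds in blue and all others in grey. The dashed line is a dKO mean 30 times the control mean and the dotted line a dKO mean of 200, and of the 6 genes Xdh and Fam19a3 lie closest to the dashed line.

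Genes with the most similar pair of group means were found by the distance between log2 means over the 2 groups. The same means chose the members, and only 8 tested genes passed both thresholds. Nearness among members thus follows largely from that choice. Trpm6 and Rln3 were each other's nearest gene in the whole table, at a distance of 0.10, and Trpm6 was also nearest to Hapln3, at 0.52. The control means of Trpm6, Rln3 and Hapln3 rest on 16, 18 and 12 reads, so distances this small lie within counting error. Ncr1 was nearest to Fam19a3 at 0.50, Zfp365 to Abi3bp at 0.51 and Ifi27l2a to Xdh at 0.57. The values of Ncr1 in the dKO libraries of size factor 1.16, 1.08 and 1.04 were 154, 297 and 244, the same order over the libraries as in Trpm6, Rln3, Abi3bp and Xdh. Zfp365, at 96.0, 266 and 169.5, also had this order. How many genes share it was not counted.

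The dKO library of size factor 1.16 held the lowest value of all 5 members with a single solution. Among all 1579 genes with a dKO mean of 200 to 700 and a single solution, that library was lowest in 31.7%. It was lowest in 45.6% of the 285 of them called higher in dKO and in 19.5% of the 313 called lower. For Hapln3 the lowest library was that of size factor 1.04 or 1.08, depending on the solution. The spread over the dKO libraries, as SD in percent of the mean, ran from 26.0% in Fam19a3 to 46.8% in Trpm6 for these 5 members, against a median of 14.8% over the 1579 genes and 16.7% over those called higher. In control no library held the lowest value throughout. That of size factor 1.02 was lowest for Abi3bp and Fam19a3, that of 0.952 for Trpm6 and Rln3, and that of 0.823 for Xdh.

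Levels of different genes were compared per kilobase of exon in GENCODE M21, which is not known to be the authors' annotation. On that scale Rln3 was highest in dKO, with a mean normalised count of 610 ± 172 per kilobase (SD, n = 3), followed by Hapln3 at 112, Xdh at 73.6 ± 27.2, Fam19a3 at 53.7 ± 14.0, Trpm6 at 52.0 ± 24.4 and Abi3bp at 28.2 ± 7.43. The gap between Rln3 and the next gene was larger than their spread. The ranges of mean ± SD of Xdh, Fam19a3 and Trpm6 overlapped. The genes share the same dKO libraries and were not compared within each library, so a difference between them was not tested. In control the order also began with Rln3, at 10.1 per kilobase, and ended with Abi3bp, at 0.49.

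Partner and family genes of the 6 members were described from 8 lists. In these, with the members left out, 81 genes were tested. Of these, 16 were higher in dKO, 12 were lower and 53 were not called, beside 15.1% and 13.8% over all tested genes. The same shares stand beside the counts of each single list below, and no list was tested against them. The median log2 fold of the lists was 0.12, against -0.01 over all tested genes.

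Of 16 tested genes of the hyaluronan list 2 rose, 1 fell and 13 were not called, with a median log2 fold of 0.28. Stab2, a scavenger receptor that takes up hyaluronan, rose 6.35-fold from 546 to 3466 (authors' adjusted p = 1.14e-49) and Hmmr, a hyaluronan-binding protein of the mitotic spindle, rose 1.24-fold (authors' adjusted p = 0.0344), per the authors' deposited table. Hyal2, a hyaluronidase, fell 1.36-fold from 1000.2 to 734 (authors' adjusted p = 0.0186), per the authors' deposited table. Cd44, the main hyaluronan receptor and part of the sorting gate in both groups, had means of 3220 and 2765, Tmem2 of 370 and 526 and Hyal3 of 84.7 and 40.7, per the authors' deposited table, and none of them was called. The other link protein genes were nearly silent: the authors' deposited table lists Hapln1 at 0 and 5.36, Hapln2 at 0.81 and 0, and Hapln4 at 0.65 and 0. The hyaluronan synthase gene Has2 was listed at 0 in both groups, Has1 at 0 and 0.87 and Has3 at 5.28 and 1.86, per the authors' deposited table.

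Of 18 tested genes for matrix glycoproteins and ABI adaptors, 6 rose, 2 fell and 10 were not called, and the median log2 fold was 0.76. That median also counts genes with very low means that were not called. The share called higher over all tested genes was 15.1%, and no test compared the list with it. Lamb1, a laminin chain, rose 12.0-fold (authors' adjusted p = 2.44e-06, per the authors' deposited table). Its recovered values were 5.86, 8.40 and 15.8 in the control libraries of size factor 1.02, 0.952 and 0.823 and 74.4, 119 and 168 in the dKO libraries of size factor 1.16, 1.08 and 1.04, with no overlap between the groups.

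Thbs1, the gene of thrombospondin 1, had no read in control and 70.1, 54.9 and 6.74 normalised counts in the dKO libraries of size factor 1.16, 1.08 and 1.04. This is at least 36.1-fold higher on the means (authors' adjusted p = 0.000698, per the authors' deposited table), with the library of size factor 1.04 well below the others. Nid1, which encodes the basement membrane protein nidogen, also had no control read and reached 13.1, at least 10.8-fold higher (authors' adjusted p = 0.0320, per the authors' deposited table). Ecm1 rose 3.22-fold from 371 to 1195, Fbln1 1.70-fold and Lamc1, another laminin chain, 1.61-fold in the authors' deposited table. Fbln2, a fibulin gene, fell 7.14-fold from 121 to 16.9 and Emilin1, of elastic fibres, 2.08-fold from 3637 to 1751, per the authors' deposited table. The adaptor genes were abundant and not called: Abi3, whose product binds that of Abi3bp, had means of 3630 and 3946, Abi1 of 3073 and 3695 and Abi2 of 1542 and 1480, per the authors' deposited table.

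Markers of stroma, a known source of matrix transcripts, were low apart from Pdgfrb. The summed mean of 7 stroma markers was 9440 in control and 2201 in dKO, of which Pdgfrb made up 9430 and 2152. Of the others, Pdgfra was at 0 in both groups, Col1a2 and Col3a1 were at 0 in control and at 10.5 and 16.1 in dKO, and Col1a1, Dcn and Lum lay between 0.96 and 13.8. The 6 markers of thymic epithelium summed to 294 and 433, with none called, and 5 endothelial markers to 2969 and 2262. Of these Kdr was called higher (0 and 16.3), Pecam1 and Esam were called lower, and Cdh5 was at 0 in both groups, per the authors' deposited table. The 7 macrophage markers summed to 1147 and 849, with Emr1 called higher (53.3 and 278) and Csf1r lower (632 and 164), per the authors' deposited table. The 5 mast cell markers summed to 6735 and 3019, with Tpsb2 called higher (19.1 and 217) and Cpa3 (5824 and 2147) and Cma1 (784 and 565) lower, per the authors' deposited table. The 6 erythroid markers summed to 158 and 110, with none called and Hba-a1, Hba-a2 and Hbb-b1 at 0 in both groups. Beta-s, a beta globin row outside that list and named after its values were seen, had 1032 in control and 12.3 in dKO (authors' adjusted p = 1.69e-83), per the authors' deposited table. The part of these cells in the levels of the 6 genes was not tested.

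No relative or receptor of relaxin 3 was called higher. Of 5 tested genes of the relaxin family 2 fell and none rose. Insl5, an insulin-like peptide gene, fell 11.3-fold (authors' adjusted p = 0.00189, per the authors' deposited table), with 36.1, 37.8 and 51.0 normalised counts in the control libraries of size factor 1.02, 0.952 and 0.823 and 2.60, 5.58 and 2.89 in the dKO libraries of size factor 1.16, 1.08 and 1.04. Rxfp1, a relaxin receptor gene, had 21.5, 14.7 and 7.29 in the same control libraries and no read in dKO, at least 15.0-fold lower (authors' adjusted p = 0.0141, per the authors' deposited table). Rxfp3, the receptor of relaxin 3, was listed at 0 in both groups, as were Rln1 and Rxfp2, and Rxfp4 had means of 0.33 and 0.31, per the authors' deposited table. Insl3 and Insl6 had means of 12.3 and 22.8, and of 14.3 and 12.1 per the authors' deposited table and were not called. All 4 other TAFA genes, Fam19a1, Fam19a2, Fam19a4 and Fam19a5, were listed at 0 in both groups, so Fam19a3 was the only member of its family with reads.

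Of 6 other TRPM channel genes tested, 1 rose. Trpm4, a calcium-activated cation channel, went from 103 to 646, 6.25-fold higher (authors' adjusted p = 5e-27, per the authors' deposited table). Trpm7, the close relative of Trpm6 that most cells express, had means of 3628 and 3271 per the authors' deposited table and was not called. Trpm2 (84.2 and 44.1) and Trpm1 (12.6 and 28.8) were not called in the authors' deposited table. Of 12 tested genes of magnesium transport, Cnnm2 rose 2.22-fold from 526 to 1166, Cnnm4 fell 1.72-fold from 655 to 381, per the authors' deposited table, and 10 were not called. The most abundant of these were Magt1, with means of 3062 and 3219, Nipa2, 998 and 1218, and Mmgt2, 878 and 940, per the authors' deposited table.

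Around Xdh, a list of purine breakdown and salvage genes, which also takes in nucleotidases whatever their substrate, moved both ways. Of 18 tested, 3 rose, 6 fell and 9 were not called, and the median log2 fold was -0.16. Nt5e, the surface enzyme CD73 that makes adenosine, rose 8.94-fold from 340 to 3037 (authors' adjusted p = 2.54e-21, per the authors' deposited table). The cytosolic nucleotidase genes Nt5c and Nt5c3 rose 1.80-fold and 1.30-fold, and Nt5c2, of the same group, fell 2.01-fold from 2538 to 1262, per the authors' deposited table. Ada, adenosine deaminase, fell 1.92-fold from 727 to 378 and Adk, adenosine kinase, 1.50-fold from 2310 to 1536, per the authors' deposited table. Pnp, the phosphorylase that yields hypoxanthine, fell 1.32-fold from 2482 to 1879, Ampd2, an AMP deaminase, 1.26-fold, and Impdh2, of guanine nucleotide synthesis, 1.61-fold from 12533 to 7787, per the authors' deposited table. The salvage genes Hprt (5364 and 5872) and Aprt (1820 and 2142) and the synthesis gene Impdh1 (3149 and 2828) were not called in the authors' deposited table. Uox, whose product breaks down uric acid, had means of 4.46 and 4.55, and Aox1, a related molybdenum enzyme, of 4.20 and 0.58, per the authors' deposited table.

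Xanthine dehydrogenase needs the molybdenum cofactor, and genes of this cofactor formed a short list. Of 6 tested, 3 rose and none fell, with a median log2 fold of 0.25. Over all tested genes 15.1% were called higher and 13.8% lower, and no test compared the list with these shares. Mocos, the sulfurase that activates the cofactor of xanthine dehydrogenase, had 16.6, 15.8 and 8.50 normalised counts in the control libraries of size factor 1.02, 0.952 and 0.823 and 65.7, 97.7 and 110 in the dKO libraries of size factor 1.16, 1.08 and 1.04. It was 6.69-fold higher with no overlap of the groups (authors' adjusted p = 7.09e-05, per the authors' deposited table). Suox, sulfite oxidase, another enzyme with this cofactor, rose 3.19-fold from 378 to 1208 (authors' adjusted p = 1e-08) and Mocs2 1.33-fold (authors' adjusted p = 0.0459), per the authors' deposited table. Mocs1 (489 and 516), Gphn (520 and 388) and Mocs3 (41.9 and 42.9) were not called in the authors' deposited table.

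**Figure D3:**
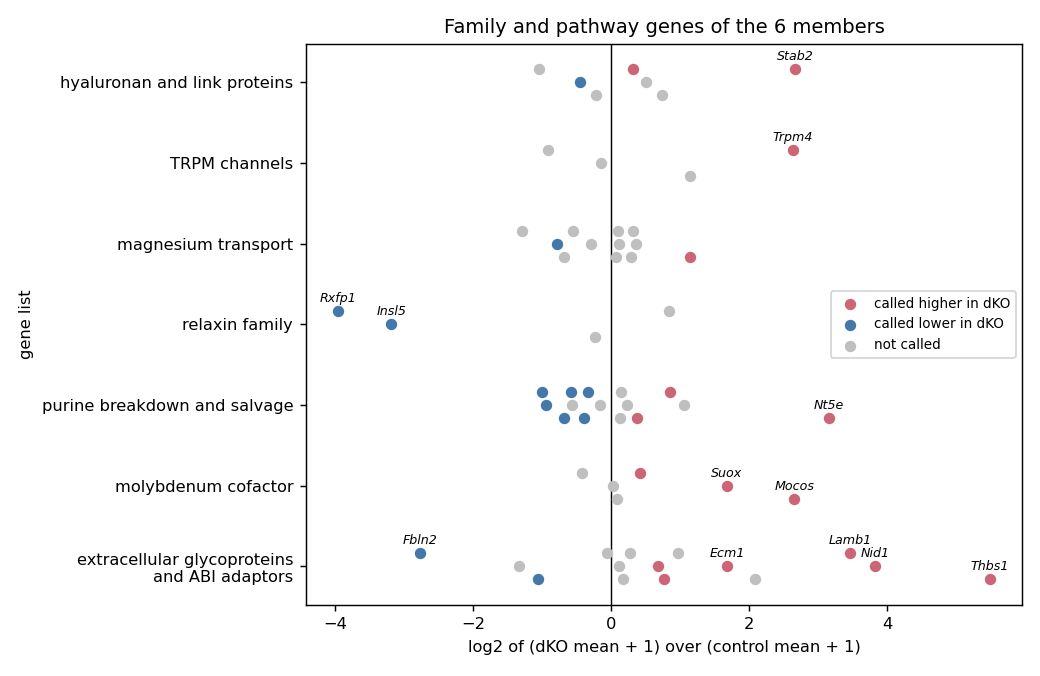
Log2 of (dKO mean + 1) over (control mean + 1) for genes of the lists with a mean of at least 10 in either group, 1 row per list, with genes called higher in red, lower in blue and not called in grey. The vertical offset within a row only separates points. Rxfp1 and Insl5 lie farthest to the left and Thbs1 farthest to the right.

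The genes beside the 6 members on the chromosome were not used to choose them. The 2 nearest tested genes on each side, by order in the RefSeq table of GRCm38.p6, gave 24 neighbours, of which 8 rose, 1 fell and 15 were not called. Genes without a tested row were passed over, 7 on the way from Trpm6 to Anxa1 and 8 from Xdh to Lclat1. Distances were not used, so a neighbour need not lie close. The share that rose, 33.3%, stands beside 15.1% of all tested genes and 21.2% of tested genes whose mean reached 100. Beside Rln3 on chromosome 8 lies Il27ra, the receptor of interleukin 27, which rose 4.89-fold from 545 to 2664 (authors' adjusted p = 3.23e-58), and then Palm3, 4.33-fold higher from 16.5 to 71.2 (authors' adjusted p = 0.00314), per the authors' deposited table. On the other side Rfx1 had means of 728 and 772 and Mir709 of 1.46 and 0, per the authors' deposited table, and neither was called. The recovered values of Palm3 were 4.88, 10.5 and 34.0 in the control libraries of size factor 1.02, 0.952 and 0.823 and 72.7, 96.7 and 44.3 in the dKO libraries of size factor 1.16, 1.08 and 1.04, with 1 dKO library close to the highest control library.

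Fam19a3 on chromosome 3 had 2 rising genes on one side and a falling gene on the other. Rhoc, a small GTPase, had 25.4, 53.6 and 40.1 normalised counts in the control libraries of size factor 1.02, 0.952 and 0.823 and 220, 220 and 266 in the dKO libraries of size factor 1.16, 1.08 and 1.04. It was 5.92-fold higher (authors' adjusted p = 1.3e-10) and the phosphatase gene Ppm1j 3.40-fold, from 142 to 481, per the authors' deposited table. Slc16a1, a lactate transporter, fell 1.85-fold from 2277 to 1234, and Lrig2 with means of 567 and 584 was not called in the authors' deposited table.

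Hapln3 on chromosome 7 lay between Acan, listed at 0 and 2.75, and Mfge8, a secreted glycoprotein gene that rose 2.01-fold from 1959 to 3931 (authors' adjusted p = 1.29e-16), per the authors' deposited table. Beyond them Isg20, an interferon-induced nuclease gene, rose 4.20-fold from 319 to 1340 (authors' adjusted p = 0.0418), while Abhd2 with 233 and 360 was not called in the authors' deposited table. Near Trpm6 on chromosome 19, D030056L22Rik rose 1.50-fold and Anxa1, annexin A1, 1.92-fold from 635 to 1218, and 2410127L17Rik and Rorb were not called in the authors' deposited table. None of the neighbours of Abi3bp on chromosome 16 (Senp7, Impg2, Tfg and Gpr128) or of Xdh on chromosome 17 (Lclat1, Ehd3, Memo1 and Dpy30) was called. Ehd3 had the widest gap among the more abundant of these, 337 and 217, per the authors' deposited table.

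**Figure D4:**
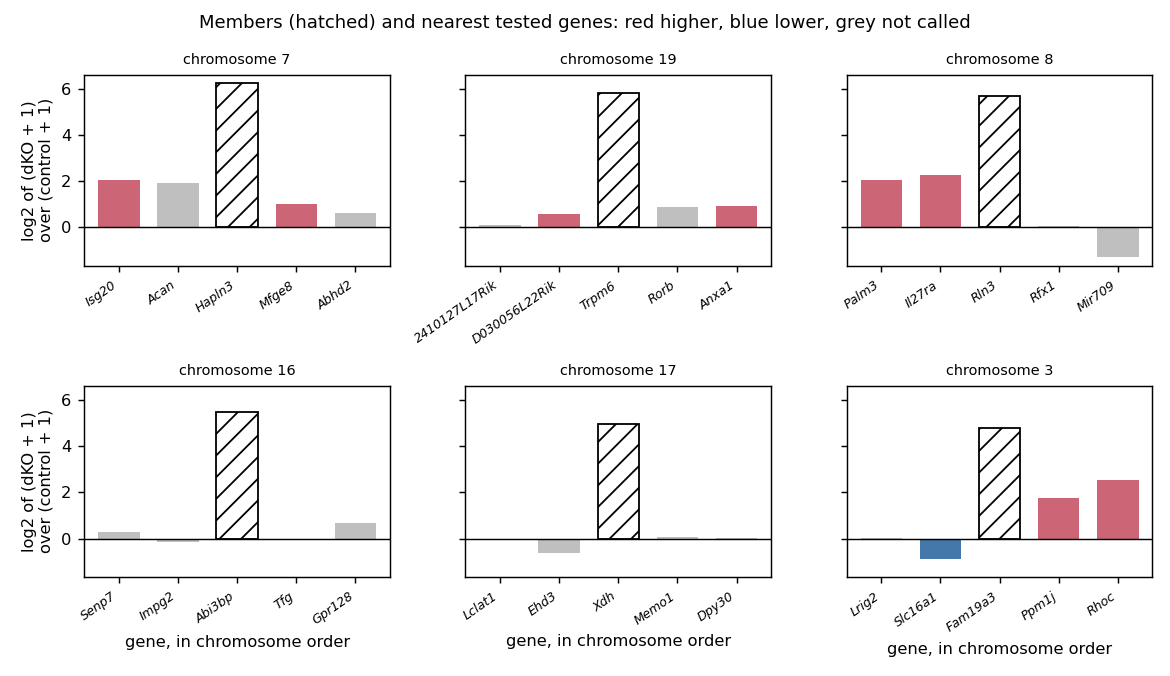
Log2 of (dKO mean + 1) over (control mean + 1) for each member (hatched) and its 2 nearest tested genes on either side, in chromosome order and not to distance, with bars in red for genes called higher, blue for lower and grey for not called. No neighbour reaches the height of its member, but the members were chosen for their height, so this is no finding about the neighbours. The called genes lie beside Hapln3, Trpm6, Rln3 and Fam19a3.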

How the data were processed

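RNA of sorted cells was made into cDNA and libraries with low-input amplification kits and sequenced on an Illumina HiSeq, per the labels' protocols. Build mm9 and the tools TopHat2 2.0.14, bcl2fastq 1.8.4 and DESeq version 2 are named in the submitters' processing notes. For the gene counter and its annotation, nothing is given in the sources used here. The 1 deposited table holds, for each gene, the authors' group means as a signal (counts divided by size factors, per the file headers), their fold as a ratio of the 2 means, and their p-value and adjusted p-value from DESeq, as deposited. A gene was called at the authors' adjusted p under 0.05, and no new test was made. Amplified reads are not independent molecules.

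Reads per library were solved from the deposited means with Python 3.11.15 and numpy 2.4.6, as whole reads times the weight of each library, to the last printed digit. All 5259 control and 5361 dKO means above 0 and up to 100 had a single solution, as did 66.3% of dKO means from 100 to 700. From 200 to 700, the range that holds the dKO means of all members, the share was 55.3%. The solver was also run on simulated data, but the outcome is not given here, so its accuracy is not stated. For fold bounds and median log2 folds, 3 reads over a group stood in for 0 (a control mean of 1.21, a dKO mean of 0.963). Genes at or under this floor in both groups were left out of the medians. Of the 81 tested list genes, 75 entered the median of all lists.

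The members and lists were chosen with earlier results of these data known. Named genes are those past or nearest to the thresholds, all called genes of each list and its 3 most abundant genes not called, the neighbours and the nearest genes by group means. Silent family members of Hapln3, Rln3, Fam19a3 and Xdh were named after their values were seen.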

Additional observations from a re-analysis of the deposited data

How the results depend on the processing

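The lowest of the 62 recomputed folds of the 6 genes was 14.2. That none reversed follows from their choice by fold and is no sign of stability. The number of members with a fold over 30 was 5 to 6 when 1 library was left out, 5 with a pseudocount of 1 and 5 with group means scaled to equal sums, a shift of -0.08 on the log2 scale. With a pseudocount of 10 it was 0, since 10 exceeds most control means. Scaling to a median ratio of 0 left it at 6. Of the 37 called genes among lists and neighbours, 30 stayed called at an adjusted p under 0.01, which lost Hyal2, Hmmr, Rxfp1, Nt5c3, Mocs2, Nid1 and Isg20. With the adjustment redone on genes with a mean of at least 10, 35 stayed called, and Rxfp1 and Nid1 were not. Leaving out a library could not be tried for calls, as the p-values are the authors'. No paired analysis was possible because the deposited table holds group means without replicate numbers. Control totals of 10 to 60 reads limit the precision of the members' folds.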
